A study of Mus musculus with 33 samples.

Results

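Dppa2, Dppa4, Zfp42 (also known as Rex1), Pou5f1 (Oct4), Sox2, Nanog, Klf4, Esrrb, Tfcp2l1 and Lin28a are 10 genes of the pluripotent state, taken by name from the 20661 protein-coding genes of mouse chromosomes 1 to 19. They were placed by their gene bodies in GRCm38 on maps of nuclear lamina contact. The choice was made with the maps known, so what the maps show over these genes and their flanks is a description and carries no test. The name under which they were grouped was pluripotency genes moving to the lamina. In heart 2 of the 10 lay in lamina-associated domains but in open ones in embryonic stem cells, as did 0.731% of all protein-coding genes. In forebrain 3 of the 10 did so, beside 0.813% of all. The 2 of heart are neighbours that share a locus, and the maps show states of separate sources, not movement.

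The maps came from CUT&RUN, in which an antibody directs a nuclease to cut and release the DNA around the protein it binds, against Lamin B1, a protein of the nuclear lamina, and against dimethylated lysine 9 of histone H3 (H3K9me2), a mark of repressed chromatin. The sources were whole hearts and right forebrain lobes of E11.5 embryos and mouse embryonic stem (mES) cells, all of the C57BL/6 genotype, with no engineered allele named for any of them. The tissues were pooled by litter and dissociated, so each holds many cell types. The mES cells were 1 commercial line, plated first on inactivated mouse fibroblasts and then kept in medium with LIF, serum, PD0325901 (an inhibitor of MEK) and CHIR99021 (an inhibitor of GSK3), and their replicates were culture vessels. H3K9me2 and Lamin B1 have 3 libraries each in heart, forebrain and mES cells, and the IgG control has 6 in heart, 6 in forebrain and 3 in mES cells, 33 libraries in all. The libraries of a source were reduced by the authors to 3 lists of domains, named LAD (lamina-associated domain), KOD (the depositors' own label, which the sources used here do not spell out) and open, in whole bins of 10 kb. A bin in none of the lists is given here as in no list. No value below has a replicate error, and the share of cells in which a locus touched the lamina cannot be told apart from how firmly it did so.

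Pluripotency rests on the transcription factors Oct4, Sox2 and Nanog, which bind together at the enhancers of ES cells, and on a wider circle of factors, among them Klf4, Esrrb and Tfcp2l1, that carry the LIF and Wnt signals of the naive state. Dppa2 and Dppa4 are neighbouring genes of small SAP-domain proteins that bind chromatin as a pair, help to switch on genes of the zygotic programme and keep developmental promoters free of DNA methylation. LADs are long, gene-poor stretches of mostly silent chromatin at the nuclear edge, and genes can leave or join them as cells differentiate. Expression was not measured in these libraries, so no state below says whether a gene was active.

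LADs took up 40.1% of the 2401 Mb map in heart, 44.0% in forebrain and 43.6% in mES cells, and 11.6%, 7.71% and 7.17% of these maps were in no list. A gene was given the state with the biggest share of its body. By this measure LAD held 14.2% of protein-coding genes in heart, 16.5% in forebrain and 16.5% in mES cells, KOD held 17.8%, 18.9% and 12.9%, open held 58%, 57.4% and 63.6%, and 9.99%, 7.21% and 7.04% were in no list. Of the marker genes of heart, Tnnt2, Myh6, Actc1 and Hand2 were open in heart and Nkx2-5 was KOD, and among those of forebrain, Six3 and Pax6 were open in forebrain and Lhx2 and Emx2 were KOD. Hand2 and Six3 were open in every source, and Pax6, Lhx2 and Emx2 were also open in heart, so the states do not by themselves tell the tissues apart.

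Of the 10 members 2 were LAD, 3 KOD, 4 open and 1 in no list in heart, and 3 were LAD, 2 KOD and 5 open in forebrain. In mES cells none was in a LAD, 8 were open and 2, Klf4 and Esrrb, were KOD. Dppa2 and Dppa4 were LAD in heart but open in mES cells, as were 0.731% of all protein-coding genes (151 genes). Dppa2, Dppa4 and Zfp42 were LAD in forebrain but open in mES cells, as were 0.813% of all (168 genes). Taken over genes open in mES cells alone, these are 1.15% for heart and 1.28% for forebrain. With the whole body in 1 state the shares of all genes were 0.358% for heart and 0.479% for forebrain, and the same members met this stricter rule. Lin28a was the single member that was KOD in a tissue but open in mES cells. This was so in heart, where the share of all genes was 9.53%, and in forebrain, where it was 11.6%. Pou5f1, Sox2, Nanog and Tfcp2l1 were open in all 3 sources, and 50.4% of all genes were open in both heart and mES cells and 48.6% in both forebrain and mES cells. The members were picked on these contrasts, so nothing is read from the shares.

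**Figure D1:**
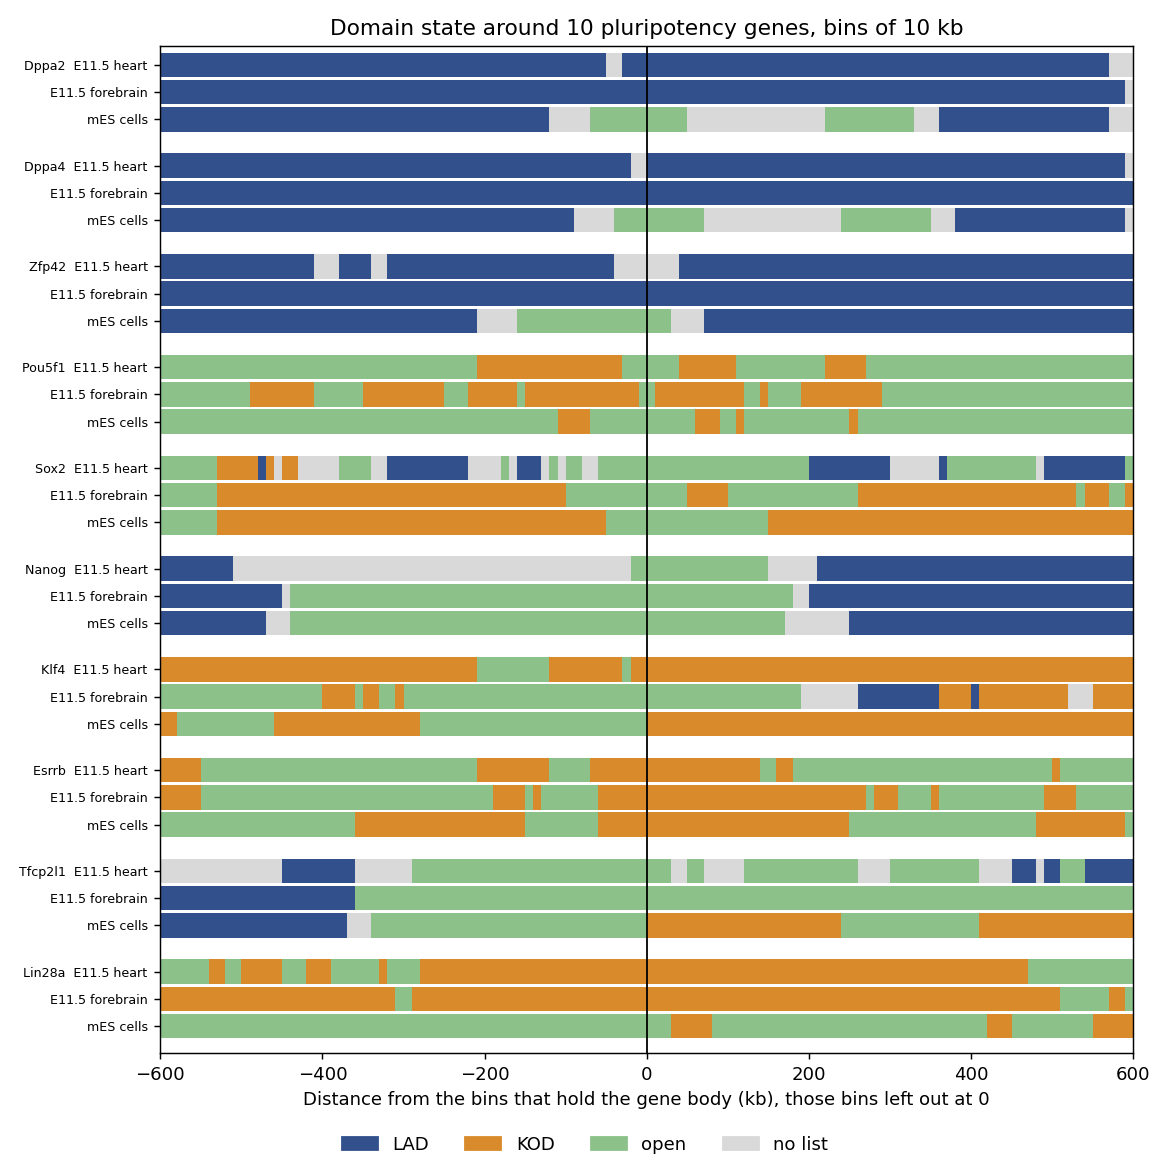
Domain state in bins of 10 kb over 600 kb on each side of the 10 genes, by distance from the bins that hold the gene body, with 3 rows per gene for E11.5 heart, E11.5 forebrain and mES cells. Dppa2, Dppa4 and Zfp42 lie in stretches without LAD in mES cells that are LAD throughout in forebrain, while no LAD comes within 100 kb of the other 7 in any source.

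Dppa2 (chromosome 16, 48310274 to 48319513) and Dppa4 (48283735 to 48294292) lie 16.0 kb apart, so they share flanks and domains and count as 1 locus. Both bodies were 100% LAD in heart, 100% LAD in forebrain and 100% open in mES cells. Over the whole annotation 0.247% of genes (51) were LAD in both tissues but open in mES cells. Of the 100 kb on each side of Dppa2, 90% was LAD in heart, 100% in forebrain and 0% in mES cells, where 60.4% was open and 39.6% in no list. For Dppa4 the LAD share of the flanks was 90% in heart, 100% in forebrain and 3.13% in mES cells, where 59.7% was open and 37.1% in no list. The flanks thus carried the same states as the bodies in both tissues, apart from 10% in no list in heart.

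Around the Dppa2 and Dppa4 pair, the heart map had LADs of 1710 kb and 610 kb, with 20 kb in no list between them, from 48260001 to 48280000. In forebrain a single LAD of 2360 kb ran across the locus, from 46550001 to 48910000. In mES cells a LAD of 1660 kb ended at base 48190000 and the next one, of 210 kb, began at 48680001. The 490 kb between these mES LADs held the pair in an open domain of 130 kb (48240001 to 48370000) and the germline gene Morc1, and 49.0% of it was open and 51.0% in no list. Morc1, which is needed for meiosis and silences transposons in male germ cells (48431237 to 48630905), was 100% LAD in heart and 100% LAD in forebrain, and in mES cells it was 45.5% open and 54.5% in no list. The 610 kb LAD of heart begins in the bin that holds the lower end of Dppa4, and with 20 kb trimmed from every domain end Dppa4 was in no list in heart while Dppa2 was still LAD.

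Zfp42, a zinc finger protein made in naive ES cells and widely used as their marker, differed between the tissues. Its body (chromosome 8, 43295067 to 43307009) was 100% in no list in heart, 100% LAD in forebrain and 100% open in mES cells. Of all genes 0.111% (23) had this pattern over the whole body. It was the single member in no list in heart but open in mES cells, as were 2.9% of all genes. Its flanks were 56.0% LAD and 44.0% in no list in heart, 100% LAD in forebrain, and 13.5% LAD, 66.5% open and 20% in no list in mES cells. In heart LADs of 280 kb and 1180 kb left 100 kb between them in no list, from 43250001 to 43350000, with Zfp42 as the only protein-coding gene wholly inside. The nearest heart LAD was 43.0 kb from the gene body. In forebrain a single LAD of 3430 kb crossed the locus. In mES cells a gap of 300 kb (43080001 to 43380000) separated LADs of 1620 kb and 1500 kb, and 70% of it was 1 open domain of 210 kb. Triml1 and Triml2, genes of the TRIM-like family that lie in the same stretch, were 100% LAD in heart and in forebrain, and they were 99.6% and 100% open in mES cells. Whether the chromatin at Zfp42 was at the lamina in heart cannot be read from a stretch in no list.

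Promoter sequence was at hand for 8 of the 10 members, and not for Dppa2 and Dppa4. Here 4 promoters are shown to set the one that lay in a forebrain LAD beside examples that were open throughout or KOD in the tissues. They are the 250 bases before the first listed start of the gene (RefSeq, GRCm38.p6), written 5′ to 3′ on the strand of the gene, and capitals mark the octamer core ATGCAAA on either strand, to which POU factors such as Oct4 bind, together with the further T of the full octamer ATGCAAAT where it is present. The Lin28a sequence lies inside the widest extent of that gene, given with its states below, because the start listed is not the outermost one. The bin of each promoter had the same state as the gene body in all 3 sources.
Zfp42, chr8:43307010-43307259, minus strand, in no list in heart, LAD in forebrain and open in mES cells: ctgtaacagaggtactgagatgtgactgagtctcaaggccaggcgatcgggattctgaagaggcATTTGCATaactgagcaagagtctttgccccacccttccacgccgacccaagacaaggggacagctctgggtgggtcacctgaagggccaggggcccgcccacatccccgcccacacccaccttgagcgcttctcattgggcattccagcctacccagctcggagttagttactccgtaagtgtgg
Nanog, chr6:122707239-122707488, plus strand, open in all 3 sources: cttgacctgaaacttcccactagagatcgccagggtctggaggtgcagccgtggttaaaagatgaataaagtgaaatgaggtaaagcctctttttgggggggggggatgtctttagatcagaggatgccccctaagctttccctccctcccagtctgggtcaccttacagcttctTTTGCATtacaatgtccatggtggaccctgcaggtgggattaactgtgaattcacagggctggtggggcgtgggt
Sox2, chr3:34649745-34649994, plus strand, open in all 3 sources: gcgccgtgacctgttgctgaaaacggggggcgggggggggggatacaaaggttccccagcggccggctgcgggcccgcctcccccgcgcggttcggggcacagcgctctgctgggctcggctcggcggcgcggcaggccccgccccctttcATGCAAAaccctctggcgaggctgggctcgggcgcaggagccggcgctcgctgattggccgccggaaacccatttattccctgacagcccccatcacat
Lin28a, chr4:134018817-134019066, minus strand, KOD in heart, KOD in forebrain and open in mES cells: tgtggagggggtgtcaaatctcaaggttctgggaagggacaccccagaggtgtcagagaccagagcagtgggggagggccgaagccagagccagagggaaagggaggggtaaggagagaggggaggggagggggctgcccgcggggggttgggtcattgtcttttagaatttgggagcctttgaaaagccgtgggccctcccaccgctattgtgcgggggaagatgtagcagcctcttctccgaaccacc
The full octamer ATGCAAAT was in the Zfp42 promoter, and over 16456 protein-coding genes with such a sequence it was in 1.63%. Its 7-base core, which every full octamer holds, was in 3 of the 8 member promoters, those of Zfp42, Nanog and Sox2, and in 3.82% of all. These are all among the sequences shown. The core was not in the Lin28a promoter, nor in those of Pou5f1, Klf4, Esrrb and Tfcp2l1, which are not shown. The motif was chosen with these sequences in view, and a match is no evidence of binding. Only the Zfp42 promoter stood for the LAD members, so nothing is read from CpG number. The Zfp42 promoter held 9 CpG dinucleotides, that of Nanog 3, that of Lin28a 7 and that of Sox2 27, against a median of 10 over all promoters. The highest count among the 8 was 32, at Klf4.

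The 3 core factors lay in open chromatin over their whole bodies in heart, forebrain and mES cells, with no LAD within 100 kb on either side. The length of the open domain differed between sources, and so did the states that lay around it. Pou5f1, the gene of Oct4 (chromosome 17, 35506032 to 35510777), sat in an open domain of 90 kb in heart, 40 kb in forebrain and 150 kb in mES cells, with KOD on both sides in each. KOD took up 57.4% of its flanks in heart, 82.4% in forebrain and 27.0% in mES cells. The open domain of forebrain held only Pou5f1 and its neighbour Tcf19 wholly inside, that of mES cells 8 genes. With domains under 100 kb left out, the gene was in no list in either tissue. With 20 kb trimmed from each domain end, it was in no list in forebrain. Pou5f1 is also the member with the most neighbours, 61 other protein-coding genes within 500 kb of its body.

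Sox2, a transcription factor of ES cells and of neural progenitors (chromosome 3, 34649995 to 34652461), had no other protein-coding gene within 500 kb. Its open domain was 280 kb long in heart, 170 kb in forebrain and 220 kb in mES cells. KOD covered 0% of the 100 kb flanks in heart, 21.2% in forebrain and 20.0% in mES cells. Farther out the heart map stood apart. Between 100 and 250 kb from the gene LAD took up 30.8% in heart, 0% in forebrain and 0% in mES cells, and KOD 0%, 49.2% and 80.8%. The nearest heart LAD lay 140.0 kb below the gene body, and a LAD of 100 kb (34860001 to 34960000) bordered the open domain of heart above the gene, whereas the nearest LADs of forebrain and mES cells were 900.0 kb away.

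Nanog (chromosome 6, 122707489 to 122714633) was 100% open in each source, in domains of 190 kb in heart, 640 kb in forebrain and 630 kb in mES cells. The longer domains of forebrain and mES cells each held 14 genes, among them the pluripotency genes Gdf3 and Dppa3. In heart the 490 kb just below the Nanog domain (122190001 to 122680000) were in no list, with Gdf3, Dppa3 and Apobec1 among the genes inside. So 36.3% of the Nanog flanks were in no list in heart, against 0% in forebrain and 0% in mES cells, and KOD was at 0% in all 3. The nearest LAD lay 215 kb away in heart, 205 kb in forebrain and 255 kb in mES cells.

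**Figure D2:**
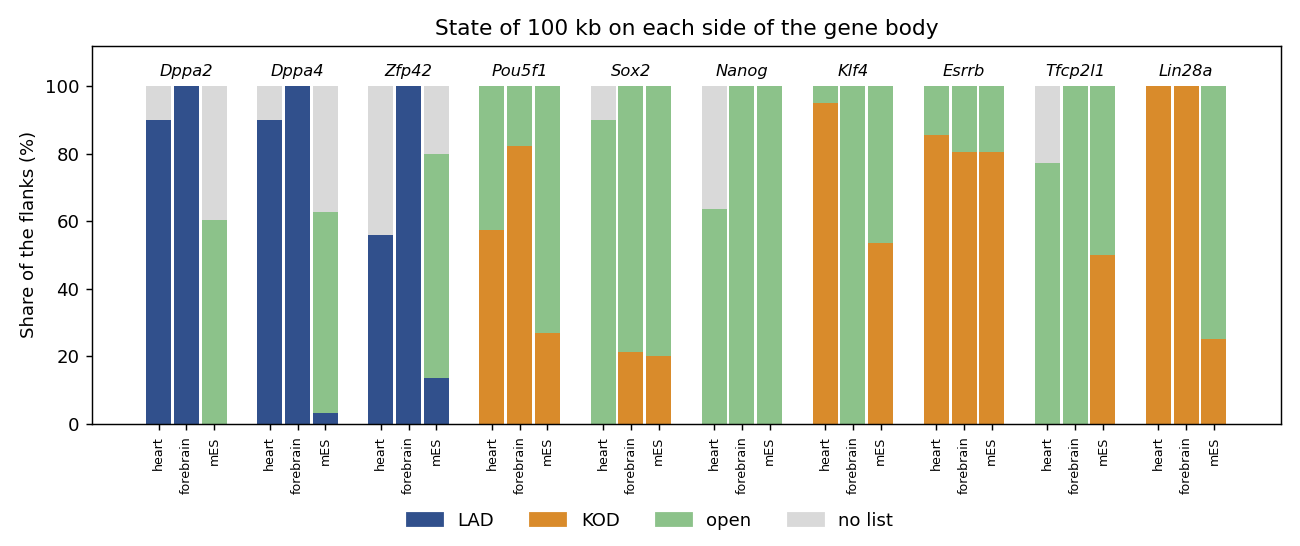
Share of 100 kb on each side of the gene body, as the mean of both sides in percent, that was LAD, KOD, open or in no list, for each gene in E11.5 heart, E11.5 forebrain and mES cells. LAD is seen at Dppa2, Dppa4 and Zfp42 only, at 56.0% to 90% in heart, 100% in forebrain and at most 13.5% in mES cells.

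The naive factors Klf4, Esrrb and Tfcp2l1 and the RNA-binding protein Lin28a had no LAD in the body or 100 kb flanks in any source. Within these limits they differed between sources in KOD and open, and Tfcp2l1 also in no list. Klf4, a zinc finger factor downstream of LIF and Stat3 (chromosome 4, 55527137 to 55532475), was 100% KOD in heart, 100% open in forebrain and 100% KOD in mES cells. Of all genes 5.42% were open in forebrain but KOD in mES cells. It was the only protein-coding gene wholly inside a KOD of 1220 kb in heart and of 1160 kb in mES cells. These KODs began just below the gene, at base 55500001 in heart and at base 55520001 in mES cells. Flank KOD was 95% in heart, 0% in forebrain and 53.6% in mES cells. The nearest LAD was 827 kb from the gene in heart, 268 kb in forebrain and 1237 kb in mES cells. With 20 kb trimmed from domain ends, Klf4 was in no list in mES cells.

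Esrrb, an orphan nuclear receptor that acts downstream of GSK3 inhibition (chromosome 12, 86361117 to 86521628), has the longest body of the 10, 160512 bases, and it was split. KOD covered 87.5% of it in heart, 93.8% in forebrain and 50.2% in mES cells, and the rest was open. The mES state is thus a near tie, and at the midpoint of the body Esrrb was KOD in both tissues but open in mES cells. With 20 kb trimmed from each domain end, Esrrb was in no list in mES cells. Genes that were KOD in heart and also in mES cells made up 7.84% of all, and genes that were KOD in forebrain and also in mES cells 6.79%.

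Tfcp2l1, a CP2-family factor of the naive network (chromosome 1, 118627923 to 118685168), was 100% open in heart, 100% open in forebrain and 91.0% open and 9.03% KOD in mES cells. The flank above it was 54.8% open and 45.2% in no list in heart, 100% open in forebrain and 100% KOD in mES cells. Neither tissue had KOD in the flanks or body of this gene, and only mES cells did.

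Lin28a (chromosome 4, 134003330 to 134019196) blocks the maturation of let-7 microRNAs. Its body was 100% KOD in heart, 100% KOD in forebrain and 100% open in mES cells, and its flanks were 100%, 100% and 25% KOD. The KOD that held it was 770 kb long in heart, with 22 genes wholly inside, and 820 kb in forebrain, with 24. In mES cells the open domain was 1440 kb long, with 35 genes. No LAD came within 5893 kb of it in heart, 10611 kb in forebrain or 9411 kb in mES cells.

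Taking the flanks together, the mean LAD share of the 100 kb flanks of Dppa2, Dppa4 and Zfp42 was 78.7% in heart, 100% in forebrain and 5.55% in mES cells. With Dppa2 and Dppa4 counted as 1 locus it was 73.0% in heart and 100% in forebrain. For the other 7 it was 0% in each. Over all protein-coding genes it was 16.2% in heart, 18.6% in forebrain and 17.5% in mES cells. Relative to mES cells the flank LAD share of Dppa2 was higher by 90 percentage points in heart and by 100 in forebrain, a difference that 47 and 46 genes of 20661 matched or exceeded, itself included. For Zfp42 the differences were 42.5 points in heart and 86.5 in forebrain, matched or exceeded by 377 and 80 genes. The members were chosen, and these genes set apart from the other 7, with the maps known. These means and ranks are thus a description, and nothing is read from them.

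In rings around the gene body, the tissue and mES maps of Dppa2 and Zfp42 came together with distance, so that the difference was local. From 250 to 500 kb LAD took up 100% around Dppa2 in heart, 100% in forebrain and 77.9% in mES cells, and 90% around Zfp42 in heart, 100% in forebrain and 100% in mES cells. Within 50 kb the maps differed. There LAD took up 80.3% around Dppa2 in heart and 100% in forebrain, against 0% in mES cells, and 11.9% around Zfp42 in heart and 100% in forebrain, against 0% in mES cells. Nanog also lies in LAD-rich surroundings. From 500 to 1000 kb LAD took up 79.3% around it in heart, 100% in forebrain and 100% in mES cells, but within 100 kb it was at 0% in each.

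Runs of bins that were LAD in a tissue but open in mES cells numbered 697 in heart, with a median of 20 kb and 290 kb for the longest. In forebrain there were 666, with the same median and 1020 kb for the longest. The run over Dppa2 and Dppa4 was 90 kb long in heart, and 63 of the 697, itself included, were at least as long. In forebrain it was 130 kb, and 35 of the 666 were at least as long. The forebrain run over Zfp42 and Triml2, which also touches Triml1, was 210 kb, and 10 of the 666 were at least as long. Gene number near the body overlapped between these genes and the other members. Within 500 kb lay 5 other protein-coding genes at Dppa2, 4 at Dppa4 and 7 at Zfp42. There were 0 at Sox2, 2 at Klf4, 4 at Tfcp2l1, 11 at Esrrb, 19 at Nanog, 33 at Lin28a and 61 at Pou5f1. The median was 17 over all genes and 18 over genes open in mES cells. Among genes open in mES cells, it was 15 for those LAD in heart and 10 for those LAD in forebrain. Whether gene number bears on these states was not tested.

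The nearest mES LAD was closer to Dppa2, Dppa4 and Zfp42 than to any of the other 7. It lay 120 kb from Dppa2, 93.7 kb from Dppa4 and 73.0 kb from Zfp42 in mES cells. Next came Nanog at 255 kb and Tfcp2l1 at 378 kb, then Pou5f1 at 829 kb, Sox2 at 900.0 kb, Esrrb at 988 kb, Klf4 at 1237 kb and Lin28a. The median over genes open in mES cells was 1011 kb. Of those genes 5.56% were as close to a mES LAD as Zfp42, 9.88% as close as Dppa2 and 19.1% as close as Nanog.

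**Figure D3:**
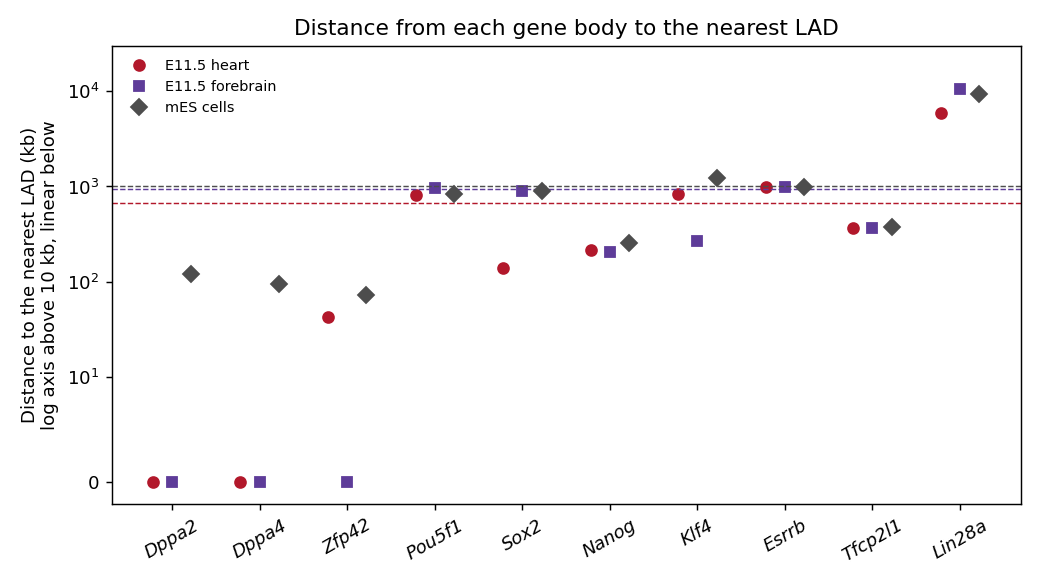
Distance in kb from each gene body to the nearest LAD in E11.5 heart, E11.5 forebrain and mES cells, on an axis that is logarithmic above 10 kb and linear below, where 0 means that the body touches a LAD. Dashed lines are the medians over genes open in mES cells. Dppa2, Dppa4 and Zfp42 lie 73.0 to 120 kb from a LAD in mES cells, and the other 7 at least 255 kb.

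Across the genome, genes open in mES cells were LAD in a tissue more often the closer they lay to a mES LAD. Of the 1073 genes under 100 kb from a mES LAD, the group of Dppa4 and Zfp42, 5.69% were LAD in heart and 5.69% in forebrain. Of the 976 genes at 100 to 200 kb, the group of Dppa2, 2.46% were LAD in heart and 2.05% in forebrain. At 200 to 500 kb, where Nanog and Tfcp2l1 lie, 1.13% were LAD in each tissue. At 500 to 1000 kb, where Pou5f1 and Sox2 lie, the shares were 0.724% in heart and 1.11% in forebrain, and beyond 1000 kb they were 0.378% and 0.56%. Even in the closest group 70.9% of genes were open in heart and 71.4% in forebrain, and 19.4% and 19.2% were in no list. KOD was most frequent beyond 1000 kb, the group of Lin28a, with 25.6% in heart and 30.1% in forebrain. In the 4 closer groups it held 2.54% to 6.73% in heart and 3.07% to 9.76% in forebrain. Genes of a cluster share domains and are not independent, so these shares have no test. The members open in mES cells are counted in them, and whether distance bears on the states of the members was not tested.

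**Figure D4:**
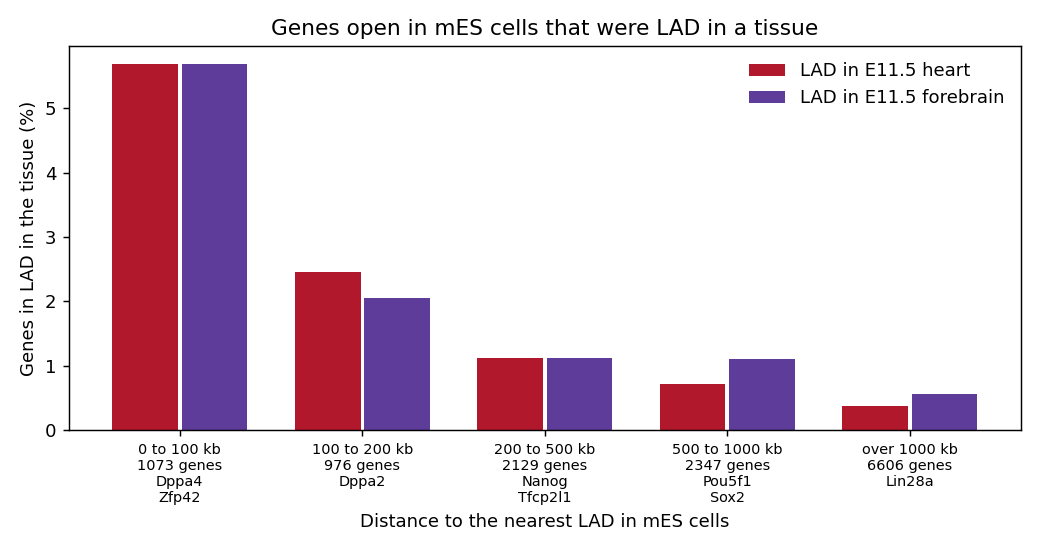
Percentage of genes open in mES cells that were LAD in E11.5 heart or E11.5 forebrain, by distance to the nearest LAD in mES cells, with the number of genes and the members in each group. The share is 5.69% in both tissues under 100 kb and 0.378% in heart and 0.56% in forebrain beyond 1000 kb.

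The stretches between mES LADs were also described by their length and by the share that was LAD in each tissue. There were 735 with a LAD on both sides and some open bins, with a median length of 530 kb. At least 90% of the stretch was LAD in heart in 21 of them, which is 2.86%, and in forebrain in 36, which is 4.9%. This was so in both tissues in 12, and 2 of the 12 held a protein-coding gene wholly inside. The stretch of Dppa2 and Dppa4 was the longest of the 36 in forebrain and the second longest of the 21 in heart, after a stretch of 560 kb with Grin2b, a glutamate receptor subunit, that was 96.4% KOD in mES cells. That of Zfp42 was the third longest of the 36 in forebrain, after one of 410 kb with Eya1, a developmental cofactor with phosphatase activity. It was 66.7% LAD in heart and so was not among the 21. The level of 90% was set after the maps had been seen. The other 7 members lay in 7 stretches of 740 kb (Nanog) to 20650 kb (Lin28a), and their LAD share was at most 22.3% in heart and 11.8% in forebrain. The longest stretch with at least 90% LAD was 560 kb in heart and 490 kb in forebrain. All 7 stretches are longer, so their shares describe the stretches and not the members inside.

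**Figure D5:**
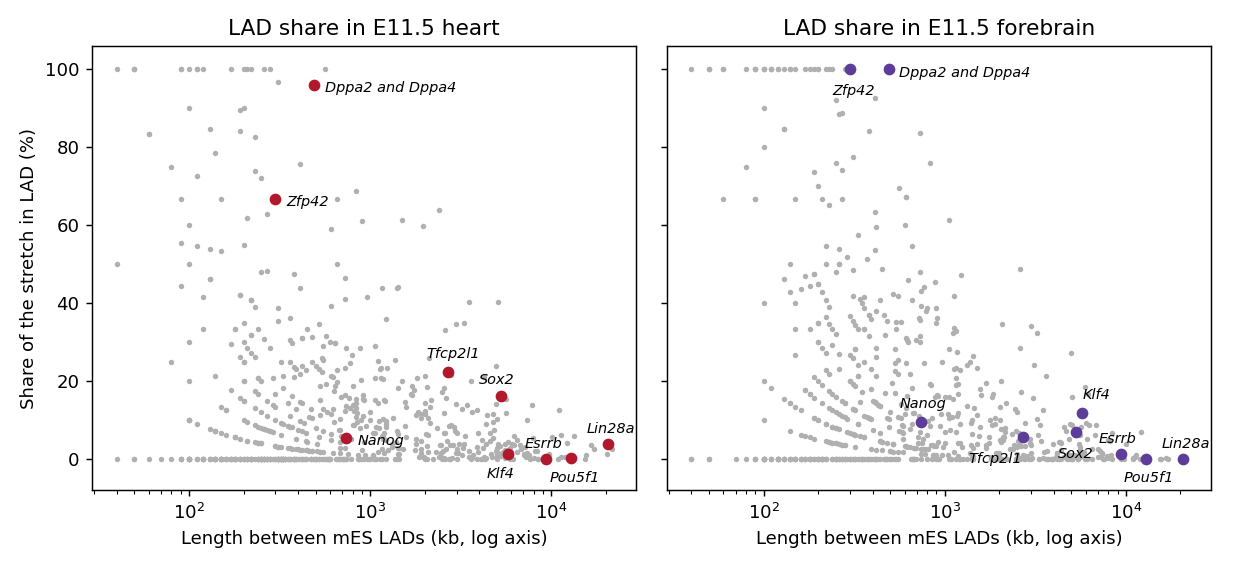
Share in percent of each of 735 stretches between 2 mES LADs that was LAD in E11.5 heart (left) and E11.5 forebrain (right), against the length of the stretch in kb on a log axis, with the 9 stretches that hold a member coloured and named. The Dppa2 and Dppa4 stretch of 490 kb reads 95.9% in heart and 100% in forebrain, and the Zfp42 stretch of 300 kb 66.7% and 100%.

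By the shares of body and flanks in LAD, KOD, open and no list in the 3 sources, 36 values per gene, the genes most like Dppa2 outside its own locus were Spata31 (mean absolute difference 5.14 percentage points), Casp14 (7.3), Triml2 (7.4), Tdpoz1 (7.46) and Cntnap3 (7.97). The median over all genes more than 1 Mb away was 37.7 points. All 5 were LAD in heart, LAD in forebrain and open in mES cells, which the choice by these same shares favours. Triml2 is the neighbour of Zfp42, and Spata31 and Cntnap3 lie close together on chromosome 13. The genes most like Zfp42 were Resf1, a factor of retroelement silencing (7.2 points), Gm14444 (8.28), the transcription factor gene Osr1 (8.34), Eya1 (9.13) and Sfrp4, a gene of a secreted Wnt antagonist (9.44), against a median of 37.1. Of these, Resf1, Gm14444, Osr1 and Sfrp4 were in no list in heart, LAD in forebrain and open in mES cells, as Zfp42 was, and Eya1 was LAD in both tissues. These states, too, are no separate result, since the genes were chosen by the same shares.

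Of 76 further genes in 4 lists of the pluripotency network and the early embryo, 1 was LAD in heart but open in mES cells, and 1 was LAD in forebrain but open in mES cells, where the shares of all genes were 0.731% and 0.813%. Both times it was Tdpoz1, an early embryo gene of a BTB-domain family on chromosome 3. None of 30 naive and ground-state genes, such as Klf2, Prdm14 and Tet1, had LAD as the biggest share of its body in any source. By that measure LAD held 14.2% of all genes in heart, 16.5% in forebrain and 16.5% in mES cells. Smaller parts were LAD in 14.8% of the Nr5a2 body in heart, and in 24.5% of Fbxo15 and 7.76% of Tet2 in forebrain. These bodies were 100% open in mES cells. In that list 23 were open in heart, 22 in forebrain and 28 in mES cells, and 3 of the genes open in mES cells were KOD in heart and 5 in forebrain, beside 9.53% and 11.6% of all genes. Of 18 genes of LIF, Wnt and FGF signalling and 13 primed or formative genes none was LAD in any source. Among the signalling genes Stat3, the effector of LIF, and Id3, a target of BMP signals, were KOD in both tissues but open in mES cells. Of 16 early embryo genes 10 were LAD in heart, 11 in forebrain and 6 in mES cells. These are to be read beside the same shares of all genes. Zfp352 and the 5 Usp17l genes were LAD in all 3 sources. Pramel6, Pramel7 and Tdpoz4 were LAD in heart, LAD in forebrain and in no list in mES cells, and Tcstv1 was in no list in heart, LAD in forebrain and KOD in mES cells. The Tdpoz, Usp17l, Pramel and Tcstv genes have close copies that reads may not tell apart, so their states are uncertain.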

How the data were processed

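The submitters' processing notes name the mm10 genome and, as tools, Bowtie2 2.5.0, cutadapt 4.2, deepTools, Picard and Trim Galore. The caller of the domains, its thresholds and its use of the IgG libraries are not given in the sources used here. The authors deposited 9 domain lists, 1 per state and source, with chromosome, start and end as other values in whole bins of 10 kb and no score. They pool the libraries of a source, so their depth is unknown, and no replicate error, interval, floor or test can be given. No reason is given for a bin to be in no list.

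Each bin of chromosomes 1 to 19 was given the state of its list with Python 3.11.15, numpy 2.4.6 and pandas 2.3.3, and the share of bases of each gene body and of 100 kb on each side was taken per state. Figures were drawn with matplotlib 3.10.9. This step was tested on simulated data. Gene positions come from RefSeq for GRCm38.p6, the assembly behind mm10. The members, lists and comparisons were chosen with earlier results of these data known. Of 77 symbols in the 4 wider lists, 76 matched. Named genes are the members, genes in the stretches of Dppa2, Dppa4 and Zfp42, list genes whose LAD state changed, and the 5 most similar genes for Dppa2 and Zfp42, with examples from the lists and stretches chosen after their values were seen. Alternatives were other rules for the state of a gene, trimmed or filled domains and other flank widths.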

Additional observations from a re-analysis of the deposited data

How the results depend on the processing

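No paired analysis was possible because each source has 1 list per state that pools its libraries, and for the same reason no replicate could be left out. With the state taken at the midpoint, 2 members were KOD in heart but open in mES cells, and 2 were so for forebrain, Esrrb being added to Lin28a. With 20 kb trimmed from each domain end, 1 member, Dppa2, was LAD in heart but open in mES cells. With domains under 100 kb left out, 0 of the wider genes were LAD in heart but open in mES cells. Filling gaps of up to 100 kb, an alternative chosen after seeing the data, gave 2 wider genes in heart and 2 in forebrain, Tdpoz1 and Tdpoz4, and 3 members in heart, Zfp42 included. The mean flank LAD share of Dppa2, Dppa4 and Zfp42 in heart was 57.4% with flanks of 50 kb, 91.5% with 250 kb, 94.1% with 500 kb, 60.4% with 20 kb trimmed and 100% of bases in some list. For the other 7 it was 3.63% in heart with 250 kb, and 9.46% in heart and 8.27% in forebrain with 500 kb. The forebrain count of 3 members and their 100% flank share did not change under any alternative run.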

Other observations

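Zscan4c, Zscan4d and Zscan4f, genes of the zygotic programme on chromosome 7 that Dppa2 and Dppa4 are known to act on, did not share the states of Dppa2 and Dppa4. Zscan4c and Zscan4d were in no list in heart, open in forebrain and in no list in mES cells. Zscan4f was open in heart, open in forebrain and in no list in mES cells. Duxf3, the gene of Dux, was in no list in any source. These genes lie in arrays of near-identical copies, where few reads map to 1 place, so their states are uncertain.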
